A study of Mus musculus with 6 samples.

Results

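The genes of the mitotic spindle, the kinetochore and the checkpoint that watches over them were followed in long-term hematopoietic stem cells (LT-HSCs) of mice given carnosine. The 36 genes were a named list, chosen with earlier results of these data known. Their rows were found by gene name in a deposited table of 55487 genes. Each name matched 1 row, and all 36 were among the 15298 genes with enough reads to be tested. Bulk RNA sequencing had been done on 3 libraries from mice given carnosine, the dipeptide beta-alanyl-histidine, and 3 from mice given saline. All the mice were wild type and had not been irradiated. The LT-HSCs had been sorted from bone marrow as cells without lineage markers, Flk2 and CD34 and with Sca-1 and c-Kit on their surface. No source used here gives the dose or duration of carnosine, or the age, sex and number of the mice. Nothing says that the 3 libraries of a group came from separate mice, so the p-values measure the spread between these libraries, which may be technical.

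At mitosis each pair of sister chromatids is tied to spindle microtubules through the kinetochore, a multi-protein plate built on centromeric chromatin. Kinetochores without microtubules emit a checkpoint signal that holds back the anaphase-promoting complex (APC/C), the ubiquitin ligase whose action lets the sisters part. The chromosomal passenger complex undoes faulty attachments, kinases of mitotic entry start the process, and a contractile ring divides the cell. Most of these genes are transcribed in G2 phase and mitosis under the B-MYB, MuvB and FOXM1 factors and the CCAAT-binding factor NF-Y. LT-HSCs are mostly quiescent, and in a sorted population these transcripts come mainly from the cells that are dividing. In bulk RNA, a larger share of dividing cells and more RNA per dividing cell cannot be told apart. Markers of other cell types also moved with the groups, as given below, and their part was not tested.

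In carnosine 19 of the 36 genes rose and 0 fell (edgeR quasi-likelihood test, adjusted p under 0.05 over all 15298 genes), while 17 did not pass. Over all genes tested, 9.51% were called higher and 8.39% lower. The rises were small, between 1.05-fold and 1.27-fold, with a median log2 fold change of 0.28 over the 19 genes. The median over all 36 was 0.19, against 0.00092 over all genes tested, and 32 of the 36 lay above 0. The 3 carnosine libraries all lay above the 3 saline libraries for 22 of the 36 genes, and all below them for 0, where 19.7% of all genes tested lay entirely above and 19.0% entirely below. Summed over the 36 genes, levels were 4477, 4392 and 4471 CPM in the carnosine libraries, against 3907, 4029 and 3917 CPM in the saline libraries. Levels are CPM, counts scaled to the size of the library with the trimmed mean of M-values of edgeR. The checkpoint and APC/C genes had the largest share of rises among the subgroups with more than 2 genes, with 5 of 7. Centromere and kinetochore genes had 4 of 8, spindle microtubule and pole genes 4 of 8, mitotic entry genes 2 of 5, and the passenger complex 1 of 4. The median log2 fold changes of these subgroups, in the same order, were 0.23, 0.20, 0.16, 0.11 and 0.19. All 4 passenger complex genes lay above 0. The differences between subgroups were not tested.

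**Figure D1:**
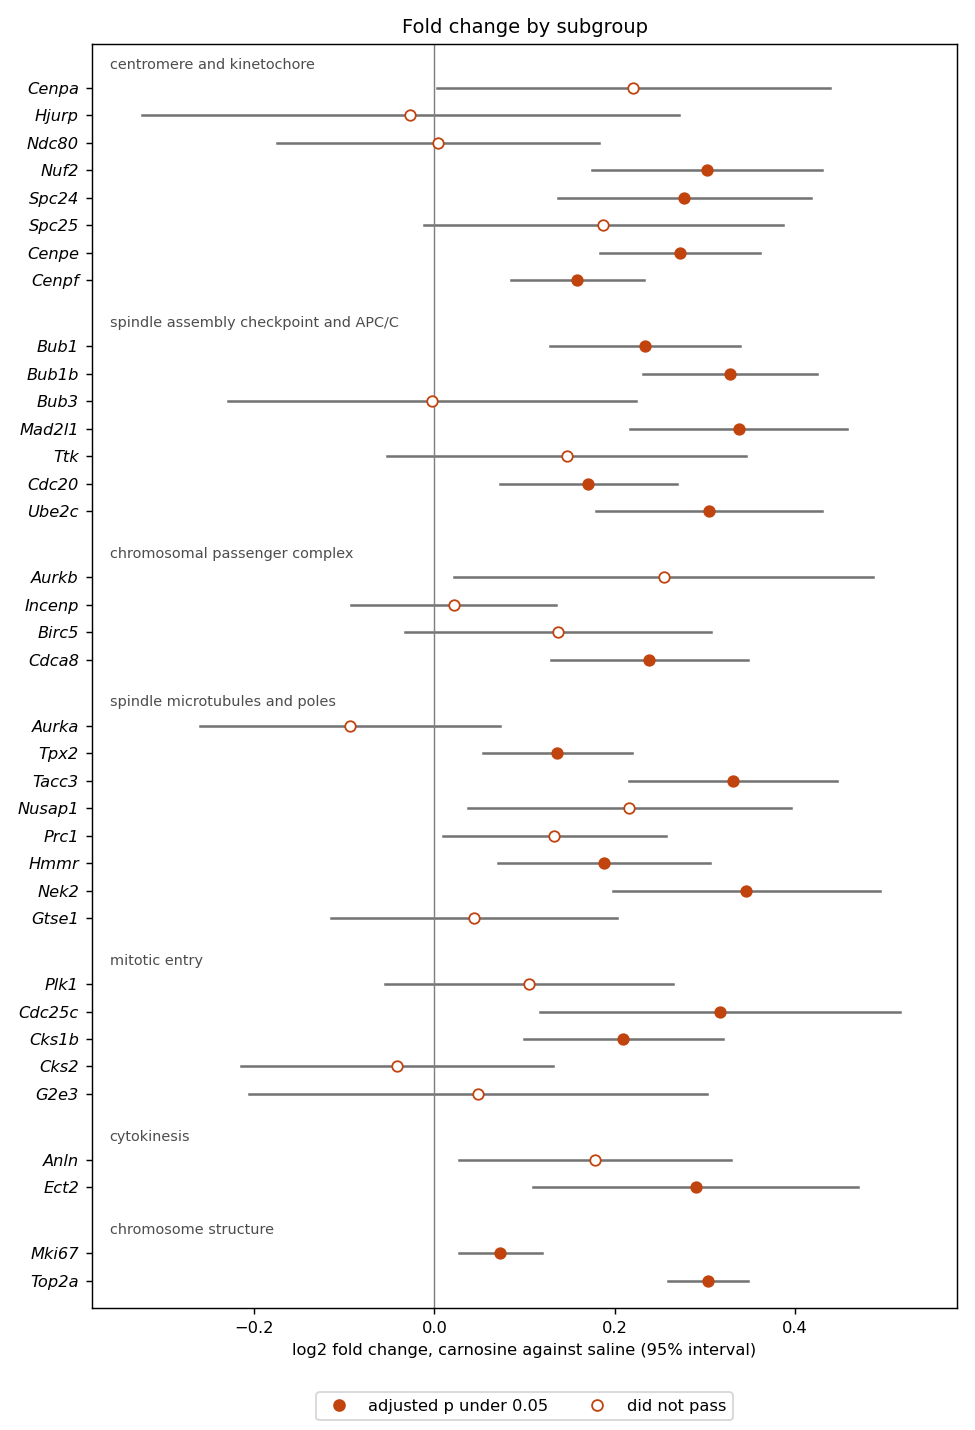
Log2 fold change of each of the 36 genes, carnosine against saline, on the horizontal axis, with 95% intervals as bars and genes grouped by role. Filled points are the 19 genes with an edgeR adjusted p under 0.05 and open points the 17 without. Filled points lie between 0.073 for Mki67 and 0.35 for Nek2, and 4 open points lie below 0.

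Totals ran from 10442112 to 13251332 counts in the carnosine libraries and from 10304539 to 13210166 in the saline libraries. The 36 genes had 150 to 11003 counts per library, and 35 of them lay above the median level of all genes tested. Ranked by level among all genes tested, their median was at percentile 76.8, Mki67 at 99.2 and Top2a at 99.3. Neither these ranks nor the median level allow for gene length, and levels of different genes compare only per length, as given below. The exons of Mki67 and Top2a, with overlaps merged, span 10061 and 9013 bases. The share of dividing cells was not measured here. Standard errors of the log2 fold changes had a median of 0.047 for the genes that rose and 0.076 for those that did not pass. Of the 17 that did not pass, 13 lay above 0, 5 had an unadjusted p under 0.05, and 8 had a 95% interval reaching above 0.3. Among those 8 the whole interval lay above 0 for Cenpa, Aurkb, Nusap1 and Anln, which missed the threshold only after adjustment.

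The start regions of 31 of the 36 genes matched RefSeq (GRCm38.p6), and the 250 bases before each start were searched on both strands for 2 short words, in the first window listed for each gene. CCAAT, or ATTGG on the other strand, is the core of the box bound by NF-Y. TTTGAA, or TTCAAA, is a form of the cell cycle genes homology region bound by the MuvB complex, called the CHR word here. Words can overlap, as CCAAT with ATTGG, and each is then counted. RefSeq starts can differ from the gene ends given with the counts. The Cdca8 window, at chr4:124936868-124937167 with 50 bases after the start, lies inside the gene, which begins on the minus strand at 124939311. The Mad2l1 window, at chr6:66534971-66535270, ends before the gene begins at 66535390. Shown first are the 3 rising genes with both words that the following text treats at length, and then the Ndc80 complex partners Nuf2 and Ndc80, of which Nuf2 rose and Ndc80 did not pass. They were chosen after their values were seen, run 5′ to 3′ on the strand of the gene, and have the words in capitals. The Top2a window lies at chr11:99024190-99024439 on the minus strand, that of Ube2c at chr2:164769679-164769928 on the plus strand, that of Cdc20 at chr4:118437344-118437593 on the minus strand, that of Nuf2 at chr1:169531465-169531714 on the minus strand and that of Ndc80 at chr17:71526858-71527107 on the minus strand.
Top2a: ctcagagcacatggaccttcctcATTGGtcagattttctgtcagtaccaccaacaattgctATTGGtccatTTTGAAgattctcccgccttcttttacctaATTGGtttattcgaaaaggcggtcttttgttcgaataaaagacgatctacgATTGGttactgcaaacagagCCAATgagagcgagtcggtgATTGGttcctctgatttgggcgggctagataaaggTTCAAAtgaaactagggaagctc
Ube2c: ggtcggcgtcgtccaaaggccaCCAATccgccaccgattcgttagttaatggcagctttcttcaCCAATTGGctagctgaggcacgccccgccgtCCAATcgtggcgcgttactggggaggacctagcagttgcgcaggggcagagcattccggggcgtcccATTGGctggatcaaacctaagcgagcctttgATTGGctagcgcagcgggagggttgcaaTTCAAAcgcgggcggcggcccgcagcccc
Cdc20: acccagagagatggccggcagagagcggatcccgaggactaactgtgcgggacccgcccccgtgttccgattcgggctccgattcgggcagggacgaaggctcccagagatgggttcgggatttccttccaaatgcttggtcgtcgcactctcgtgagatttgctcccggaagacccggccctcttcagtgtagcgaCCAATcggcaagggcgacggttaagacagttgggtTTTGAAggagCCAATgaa
Nuf2: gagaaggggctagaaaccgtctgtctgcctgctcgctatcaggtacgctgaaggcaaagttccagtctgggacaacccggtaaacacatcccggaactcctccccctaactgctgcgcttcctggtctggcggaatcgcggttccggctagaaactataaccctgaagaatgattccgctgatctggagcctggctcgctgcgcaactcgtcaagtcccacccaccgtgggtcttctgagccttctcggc
Ndc80: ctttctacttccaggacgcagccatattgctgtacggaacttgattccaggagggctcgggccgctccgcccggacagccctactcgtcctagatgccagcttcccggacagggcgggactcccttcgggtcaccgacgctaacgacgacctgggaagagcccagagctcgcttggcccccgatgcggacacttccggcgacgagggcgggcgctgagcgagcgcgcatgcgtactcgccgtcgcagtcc

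Top2a has 6 CCAAT words and 2 CHR words, the nearer of them 23 bases before the start. Ube2c has 6 CCAAT words, of which a pair overlaps as CCAATTGG, and 1 CHR word 29 bases before the start. Cdc20 has 2 CCAAT words and 1 CHR word 18 bases before the start, and Nuf2 and Ndc80 have neither word in these windows. Of the 31 genes with a window, 23 (74.2%) had at least 1 CCAAT word, against 36.8% of the 10135 tested genes with a window. At least 2 CCAAT words were found for 17 of 31 (54.8%), against 14.2% of those tested genes. The CHR word was found for 7 of 31 (22.6%), against 10.9%, and all 7 also had CCAAT (both words, 4.36% of those tested genes). Of these 7 genes Top2a, Ube2c, Cdc20, Cks1b, Ect2 and Mki67 rose and Bub3 did not pass. Counted by call, CCAAT was found for 13 of 16 genes that rose and 10 of 15 that did not pass, and the CHR word for 6 of 16 and 1 of 15. Over all windows listed for a gene, the CHR word was found for 6 of 16 that rose and 2 of 15 that did not pass, Prc1 being the other, and for 13.2% of the tested genes. These are descriptions of letters in short windows, and no test was made of them.

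Centromere and kinetochore genes split between 4 that rose and 4 that did not pass, with a median log2 fold change of 0.20. Cenpe (ENSMUSG00000045328, GRCm38 chromosome 3, 135212537 to 135273611), a kinesin motor that carries chromosomes to the spindle equator, had 127, 124 and 127 CPM in the carnosine libraries, against 108, 103 and 101 CPM in the saline libraries. The groups do not overlap, and each carnosine library lies well above the highest saline library. Its mean was 126 ± 1.67 CPM in carnosine, against 104 ± 3.22 CPM in saline (SD, n = 3 each), and Cenpe rose (log2 fold change 0.27, SE 0.038, edgeR adjusted p = 0.00328). Cenpf (ENSMUSG00000026605, GRCm38 chromosome 1, 189640606 to 189688086), a large coiled-coil protein of the outer plate, had 145, 148 and 146 CPM in the carnosine libraries, against 132, 129 and 133 CPM in the saline libraries. The libraries of each group are close together, and Cenpf rose by a smaller amount (log2 fold change 0.16, SE 0.032, edgeR adjusted p = 0.0144). Its call was lost with DESeq2 (adjusted p = 0.157) and with limma on log2(FPKM + 1) or log2(FPKM + 0.1) (adjusted p = 0.0659 and 0.0632).

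The Ndc80 complex is a rod of 4 proteins that grips the microtubule at one end and the inner kinetochore at the other. Nuf2 (ENSMUSG00000026683, GRCm38 chromosome 1, 169497934 to 169531464), which pairs with Ndc80 in the microtubule-binding head, had 58.3, 59.7 and 54.9 CPM in the carnosine libraries, against 48.1, 46.4 and 45.6 CPM in the saline libraries. All carnosine values are higher, and Nuf2 rose (log2 fold change 0.30, SE 0.055, edgeR adjusted p = 0.0098). Ndc80 (ENSMUSG00000024056, GRCm38 chromosome 17, 71496100 to 71526857) itself had 46.4, 48.7 and 44.7 CPM in the carnosine libraries, against 43.2, 51.3 and 45.0 CPM in the saline libraries. Here the groups overlap, with the highest library a saline one, and Ndc80 did not pass (log2 fold change 0.0040, 95% interval -0.17 to 0.18, edgeR adjusted p = 0.979). Spc24 (ENSMUSG00000074476, GRCm38 chromosome 9, 21755442 to 21760303), at the end of the rod that docks on the inner kinetochore, had 53.3, 52.0 and 53.4 CPM in the carnosine libraries, against 42.6, 41.6 and 46.7 CPM in the saline libraries. The carnosine libraries lie above all saline libraries, and Spc24 rose (log2 fold change 0.28, SE 0.060, edgeR adjusted p = 0.0196). That call was lost when carnosine replicate 1 or 3 or saline replicate 1 or 2 was left out (edgeR adjusted p up to 0.0657), and with DESeq2. Its partner Spc25 had 35.2, 35.5 and 32.4 CPM in the carnosine libraries, against 33.6, 28.6 and 28.4 CPM in the saline libraries. The carnosine values are higher except that the lowest lies below saline replicate 1, and Spc25 did not pass (log2 fold change 0.19, 95% interval -0.011 to 0.39, edgeR adjusted p = 0.172).

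At the base of the kinetochore, Cenpa (ENSMUSG00000029177, GRCm38 chromosome 5, 30666777 to 30674830), the histone H3 variant that marks centromeres, had 91.9, 71.5 and 86.5 CPM in the carnosine libraries, against 71.6, 67.7 and 75.2 CPM in the saline libraries. Carnosine replicates 1 and 3 are the highest of the 6 libraries and carnosine replicate 2 is below saline replicates 1 and 3, so the groups overlap (log2 fold change 0.22, 95% interval 0.0030 to 0.44, edgeR adjusted p = 0.147). Without carnosine replicate 2, Cenpa was called higher (log2 fold change 0.32, edgeR adjusted p = 0.025). Hjurp (ENSMUSG00000044783, GRCm38 chromosome 1, 88262471 to 88277633), the chaperone that loads Cenpa, had 352, 356 and 412 CPM in the carnosine libraries, against 310.0, 451 and 379.7 CPM in the saline libraries. It has the largest standard error of the 36 genes, 0.13, with both the lowest and the highest value in saline (log2 fold change -0.027, 95% interval -0.32 to 0.27, edgeR adjusted p = 0.909). Summed over the 8 genes the level was 909, 894 and 956 CPM in the carnosine libraries, against 788, 918 and 855 CPM in the saline libraries. These sums overlap between the groups, and Hjurp, whose saline replicate 2 is high, gives the most counts in each.

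Of the 7 checkpoint and APC/C genes 5 rose, 3 of the 5 checkpoint genes and both APC/C genes, with a median log2 fold change of 0.23. DESeq2 called 3 of the 7, as did edgeR at a threshold of 0.01. Mad2l1 (ENSMUSG00000029910, GRCm38 chromosome 6, 66535390 to 66547220) encodes MAD2, which binds and blocks Cdc20, and had 93.5, 95.6 and 93.3 CPM in the carnosine libraries, against 69.6, 76.0 and 77.8 CPM in the saline libraries. Every carnosine library is above every saline library, with a mean of 94.1 ± 1.28 CPM in carnosine, against 74.5 ± 4.34 CPM in saline (SD, n = 3 each). Mad2l1 rose (log2 fold change 0.34, SE 0.051, edgeR adjusted p = 0.0047). Bub1b (ENSMUSG00000040084, GRCm38 chromosome 2, 118598211 to 118641591) encodes BubR1, another part of the inhibitor that holds the APC/C, and had 174, 166 and 183 CPM in the carnosine libraries, against 140.3, 138 and 138 CPM in the saline libraries. The saline libraries differ little from each other and the carnosine libraries are all higher (log2 fold change 0.33, SE 0.041, edgeR adjusted p = 0.00212). The kinase Bub1 (ENSMUSG00000027379), which recruits the others to the kinetochore, had 78.6, 81.5 and 80.4 CPM in the carnosine libraries, against 65.7, 68.3 and 70.4 CPM in the saline libraries. It rose with no overlap between the groups (log2 fold change 0.23, SE 0.045, edgeR adjusted p = 0.0125), and the call was lost with DESeq2 (adjusted p = 0.0626).

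Bub3, the propeller protein that brings Bub1 and Bub1b to the kinetochore, had 112, 92.4 and 92.0 CPM in the carnosine libraries, against 109, 97.3 and 90.2 CPM in the saline libraries. The groups overlap and Bub3 did not pass (log2 fold change -0.0025, 95% interval -0.23 to 0.22, edgeR adjusted p = 0.989). Ttk, which encodes the kinase MPS1 at the top of the checkpoint, had 37.4, 36.9 and 34.9 CPM in the carnosine libraries, against 32.6, 29.5 and 36.3 CPM in the saline libraries. Saline replicate 3 is at the level of the carnosine libraries, and Ttk did not pass (log2 fold change 0.15, 95% interval -0.052 to 0.35, edgeR adjusted p = 0.277).

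The APC/C genes Ube2c and Cdc20 are the other 2 of the 5. Ube2c (ENSMUSG00000001403, GRCm38 chromosome 2, 164769898 to 164778822), the ubiquitin-conjugating enzyme that starts chains for the APC/C, had 70.4, 69.2 and 65.0 CPM in the carnosine libraries, against 57.3, 55.0 and 53.4 CPM in the saline libraries. All carnosine libraries lie above the saline ones, and Ube2c rose (log2 fold change 0.30, SE 0.054, edgeR adjusted p = 0.00897). Cdc20 (ENSMUSG00000006398, GRCm38 chromosome 4, 118432901 to 118437352), the activator that MAD2 blocks, had 107, 114 and 110.5 CPM in the carnosine libraries, against 101, 96.0 and 97.8 CPM in the saline libraries. The gap between the groups is narrower than for Ube2c, and Cdc20 rose by less (log2 fold change 0.17, SE 0.042, edgeR adjusted p = 0.0299). Its call was lost when carnosine replicate 2 or 3 or saline replicate 2 or 3 was left out (edgeR adjusted p up to 0.0895), and with DESeq2. Both genes hold CCAAT and CHR words in the start regions printed above. Summed over the 7 genes, the level was 673, 656 and 659 CPM in the carnosine libraries, against 576, 560.1 and 564 CPM in the saline libraries, with no overlap between the groups.

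In the chromosomal passenger complex 1 of 4 genes rose. Cdca8 (ENSMUSG00000028873, GRCm38 chromosome 4, 124918465 to 124939311) encodes borealin, which helps to place the complex at the centromere, and had 93.1, 96.0 and 101 CPM in the carnosine libraries, against 82.3, 84.2 and 79.2 CPM in the saline libraries. The groups do not overlap and Cdca8 rose (log2 fold change 0.24, SE 0.047, edgeR adjusted p = 0.0133). Its kinase Aurkb had 82.0, 62.8 and 68.5 CPM in the carnosine libraries, against 57.3, 58.0 and 63.5 CPM in the saline libraries. Carnosine replicate 1 is the highest of the 6 and carnosine replicate 2 lies just below saline replicate 3, so the groups overlap and Aurkb did not pass in spite of the higher mean (log2 fold change 0.25, 95% interval 0.022 to 0.49, edgeR adjusted p = 0.122).

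Birc5, which encodes survivin, the subunit that reads a histone mark at the centromere, had 62.0, 60.5 and 57.7 CPM in the carnosine libraries, against 55.3, 59.1 and 49.6 CPM in the saline libraries. Saline replicate 2 falls within the carnosine range (log2 fold change 0.14, 95% interval -0.033 to 0.31, edgeR adjusted p = 0.237). The scaffold Incenp had 179, 171 and 163 CPM in the carnosine libraries, against 177, 167 and 161 CPM in the saline libraries. Its groups overlap and its interval is the narrowest of the 3 that did not pass (log2 fold change 0.021, 95% interval -0.092 to 0.14, edgeR adjusted p = 0.8). The summed level of the 4 genes was 416, 390.5 and 389 CPM in the carnosine libraries, against 371, 369 and 354 CPM in the saline libraries.

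Among genes of spindle microtubules and poles 4 of 8 rose, where 9.51% of all genes tested were called higher. Carnosine lies entirely above saline for 6 of the 8, as it does for 19.7% of all genes tested. Nek2 (ENSMUSG00000026622, GRCm38 chromosome 1, 191821444 to 191833050), a kinase that parts the centrosomes, had 56.2, 50.5 and 57.4 CPM in the carnosine libraries, against 43.3, 43.8 and 42.2 CPM in the saline libraries. It had the largest log2 fold change of the 36 genes, and the lowest carnosine library is above the highest saline library (log2 fold change 0.35, SE 0.063, edgeR adjusted p = 0.0102). Tacc3 (ENSMUSG00000037313, GRCm38 chromosome 5, 33658128 to 33678995), which works with clathrin and a microtubule polymerase to bridge the fibres between kinetochore and pole, had 81.7, 77.7 and 84.4 CPM in the carnosine libraries, against 66.7, 63.2 and 64.0 CPM in the saline libraries. All carnosine values are higher, with a mean of 81.3 ± 3.38 CPM in carnosine, against 64.6 ± 1.81 CPM in saline (SD, n = 3 each), and Tacc3 rose (log2 fold change 0.33, SE 0.049, edgeR adjusted p = 0.00432).

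Tpx2, which activates Aurora A and carries it to the spindle, had 128, 125 and 126 CPM in the carnosine libraries, against 114, 118 and 113 CPM in the saline libraries. The groups are close but do not overlap, and Tpx2 rose (log2 fold change 0.14, SE 0.035, edgeR adjusted p = 0.0365). Its call held without saline replicate 2 only and was lost when any other library was left out (edgeR adjusted p up to 0.114). It was also lost with DESeq2, upper quartile scaling, no filter and both FPKM fits. Hmmr, a microtubule-binding protein of spindle poles, had 62.3, 62.1 and 58.8 CPM in the carnosine libraries, against 52.4, 55.3 and 53.1 CPM in the saline libraries. It rose (log2 fold change 0.19, SE 0.050, edgeR adjusted p = 0.0407), again without overlap, and lost the call when any 1 of the 6 libraries was left out (edgeR adjusted p up to 0.108), and with DESeq2, upper quartile scaling or no filter.

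Aurora A itself, the pole kinase encoded by Aurka, had 34.2, 34.5 and 36.3 CPM in the carnosine libraries, against 34.2, 39.4 and 38.4 CPM in the saline libraries. It has the lowest log2 fold change of the 36 genes, and the saline libraries reach higher, but the groups overlap and Aurka did not pass (log2 fold change -0.094, 95% interval -0.26 to 0.073, edgeR adjusted p = 0.407). Nusap1, which bundles microtubules near chromosomes, had 109, 102 and 104 CPM in the carnosine libraries, against 97.7, 93.9 and 79.6 CPM in the saline libraries. The carnosine libraries are all higher, and saline replicate 3 stands below the other saline libraries (log2 fold change 0.22, 95% interval 0.037 to 0.40, edgeR adjusted p = 0.0951). Prc1, which cross-links the antiparallel microtubules of the midzone, had 74.6, 74.8 and 71.4 CPM in the carnosine libraries, against 63.3, 70.0 and 68.0 CPM in the saline libraries. The groups do not overlap, and Prc1 did not pass (log2 fold change 0.13, 95% interval 0.0099 to 0.26, edgeR adjusted p = 0.126). Gtse1, a protein that stabilises microtubules, had 27.0, 27.6 and 29.9 CPM in the carnosine libraries, against 28.1, 26.8 and 27.2 CPM in the saline libraries, with overlap (log2 fold change 0.044, 95% interval -0.11 to 0.20, edgeR adjusted p = 0.7).

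Of the 5 genes of mitotic entry 2 rose. Cdc25c, the phosphatase that frees CDK1 from inhibition, had 19.7, 20.6 and 18.6 CPM in the carnosine libraries, against 14.4, 16.2 and 16.5 CPM in the saline libraries. It is the gene with the fewest counts of the 36, and its carnosine libraries all lie above the saline ones (log2 fold change 0.32, SE 0.086, edgeR adjusted p = 0.0419). The call was lost when any 1 library was left out (edgeR adjusted p up to 0.108), and with DESeq2, no filter and both FPKM fits. Cks1b (ENSMUSG00000028044, GRCm38 chromosome 3, 89415472 to 89418383), a small adaptor that helps CDKs find phosphorylated substrates, had 87.1, 79.5 and 83.8 CPM in the carnosine libraries, against 73.3, 71.6 and 71.7 CPM in the saline libraries. The saline libraries are nearly equal and the carnosine libraries are higher (log2 fold change 0.21, SE 0.047, edgeR adjusted p = 0.0225). Its call held only without carnosine replicate 2 among the fits with 1 library left out (edgeR adjusted p up to 0.0718), and was lost with DESeq2.

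Cks2, the close relative of Cks1b, had 31.4, 35.2 and 35.7 CPM in the carnosine libraries, against 36.9, 33.5 and 34.9 CPM in the saline libraries. The groups overlap and the saline mean is slightly higher (log2 fold change -0.041, 95% interval -0.21 to 0.13, edgeR adjusted p = 0.739). Plk1, the kinase that drives entry and spindle assembly, had 46.4, 43.3 and 50.6 CPM in the carnosine libraries, against 43.9, 44.1 and 42.5 CPM in the saline libraries. Carnosine replicate 2 lies below saline replicates 1 and 2, and Plk1 did not pass (log2 fold change 0.11, 95% interval -0.054 to 0.26, edgeR adjusted p = 0.329). G2e3, a ubiquitin ligase named for its expression in G2 and mitosis, had 33.1, 35.2 and 27.4 CPM in the carnosine libraries, against 28.4, 30.4 and 33.4 CPM in the saline libraries. Here carnosine replicate 3 is the lowest of the 6 libraries (log2 fold change 0.048, 95% interval -0.21 to 0.30, edgeR adjusted p = 0.797).

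The 2 cytokinesis genes and the 2 genes of chromosome structure all have groups that do not overlap, with carnosine above saline. Of all genes tested, 19.7% lay entirely above in this way. Ect2, the exchange factor that switches on RhoA at the division plane, had 87.4, 85.9 and 83.5 CPM in the carnosine libraries, against 78.1, 69.3 and 62.9 CPM in the saline libraries. Saline libraries spread more than carnosine libraries, and Ect2 rose (log2 fold change 0.29, SE 0.077, edgeR adjusted p = 0.0402). Its log2 fold change ranged over 0.22 to 0.38 with 1 library left out, and the call held without saline replicate 1 only (edgeR adjusted p up to 0.109). It was also lost with upper quartile scaling and both FPKM fits. Anln, which encodes the ring scaffold anillin, had 57.4, 55.0 and 50.1 CPM in the carnosine libraries, against 46.4, 48.0 and 49.2 CPM in the saline libraries. It did not pass (log2 fold change 0.18, 95% interval 0.027 to 0.33, edgeR adjusted p = 0.101).

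Top2a (ENSMUSG00000020914, GRCm38 chromosome 11, 98992943 to 99024189), the topoisomerase that untangles sister chromatids, had 819.7, 832 and 834 CPM in the carnosine libraries, against 668, 673 and 674 CPM in the saline libraries. It has the smallest adjusted p of the 36 genes, and the groups stand apart by far more than the spread within either (log2 fold change 0.30, SE 0.019, edgeR adjusted p = 6.95e-05). Mki67, the proliferation marker Ki-67 that coats mitotic chromosomes, had 724, 709.9 and 714 CPM in the carnosine libraries, against 682, 685 and 674 CPM in the saline libraries. The groups do not overlap, but the difference is the smallest among the 19 that rose (log2 fold change 0.073, SE 0.020, edgeR adjusted p = 0.0417). Its call was lost when any 1 library was left out (edgeR adjusted p up to 0.125), and with DESeq2, upper quartile scaling, library totals only and both FPKM fits. The CHR and CCAAT words are in the start regions of both genes, while Mad2l1, Tacc3 and Nuf2 rose with neither word in theirs.

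**Figure D2:**
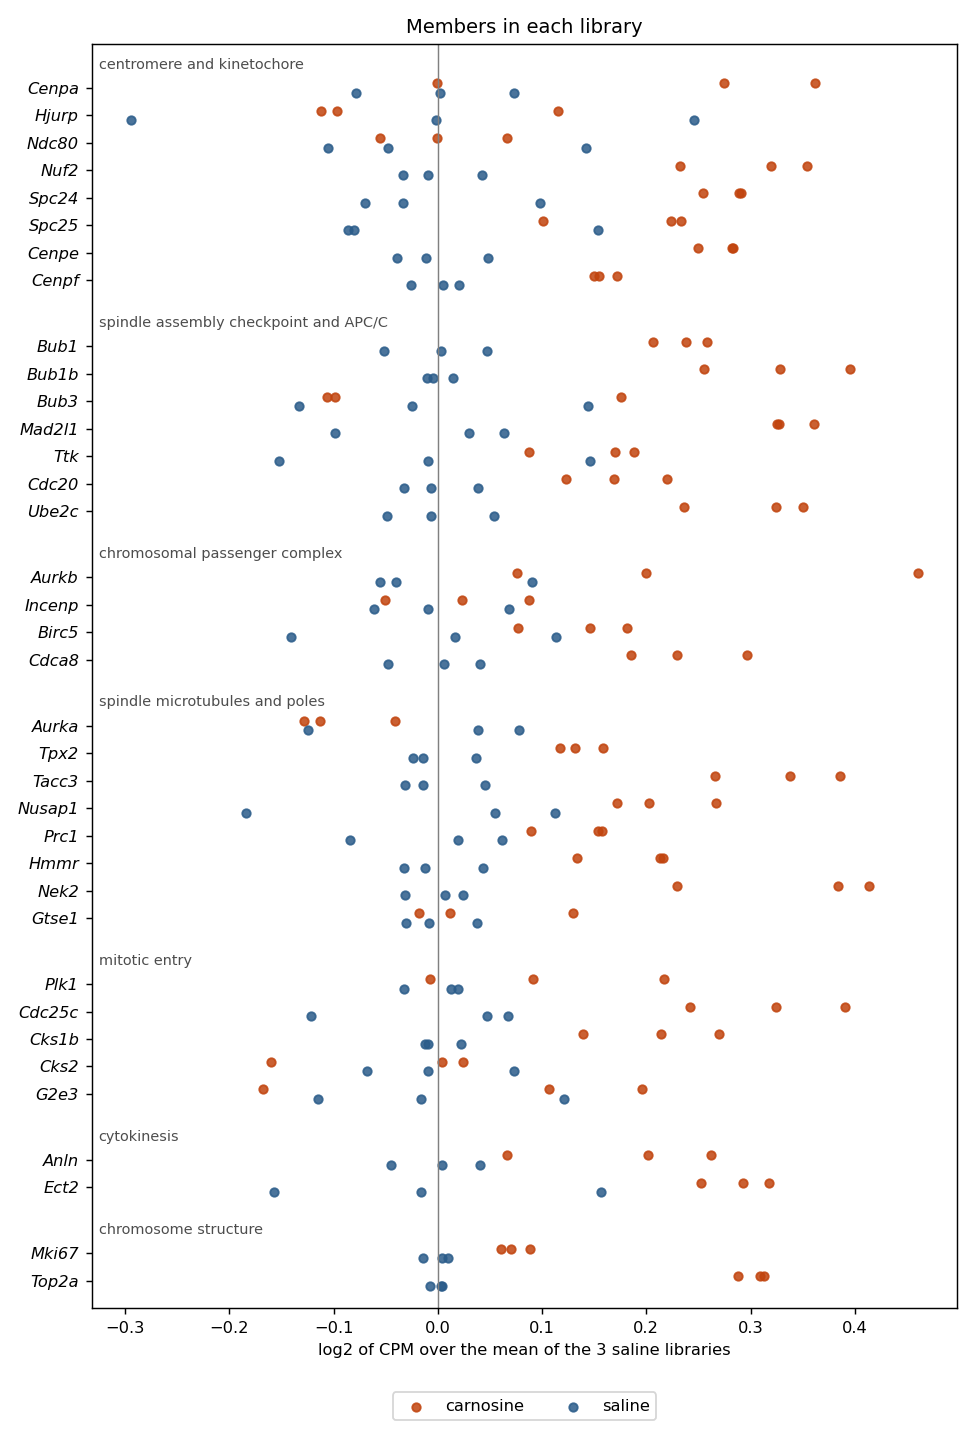
Level of each of the 36 genes in each library as log2 of its CPM over the mean of the 3 saline libraries, horizontal axis, with carnosine and saline libraries as separate symbols. The 3 carnosine libraries lie to the right of all 3 saline libraries for 22 genes, among them Top2a, Nuf2 and Bub1b, and are mixed with them for 14, among them Hjurp and Bub3.

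Within a library, the count of one gene over another does not depend on how the library was scaled. The 7 pairs compared this way were partners, relatives (Cks1b and Cks2, Aurkb and Aurka) or of the same subgroup (Top2a and Mki67). They were chosen after their values were seen, and no test was made of the ratios. Nuf2 over Ndc80 was 1.25, 1.23 and 1.23 in the carnosine libraries, against 1.11, 0.905 and 1.01 in the saline libraries. Cdca8 over Incenp was 0.520, 0.561 and 0.619 in the carnosine libraries, against 0.466, 0.503 and 0.491 in the saline libraries. In both pairs the ratio is higher in every carnosine library than in any saline library. Top2a over Mki67 was 1.13, 1.17 and 1.17 in the carnosine libraries, against 0.979, 0.982 and 0.9995 in the saline libraries. Cks1b over Cks2 was 2.77, 2.26 and 2.35 in the carnosine libraries, against 1.98, 2.14 and 2.06 in the saline libraries. These ratios too lie higher in every carnosine library, but the values of Cks2 are uncertain because of processed pseudogenes, as given below. Bub1b over Bub3 was 1.56, 1.79 and 1.99 in the carnosine libraries, against 1.28, 1.42 and 1.53 in the saline libraries. Aurkb over Aurka was 2.40, 1.82 and 1.89 in the carnosine libraries, against 1.67, 1.47 and 1.65 in the saline libraries. Neither of these ratios has overlap between the groups, though the gap for Bub1b over Bub3 is narrow. Spc24 over Spc25 was 1.51, 1.47 and 1.65 in the carnosine libraries, against 1.27, 1.46 and 1.64 in the saline libraries, and here the groups overlap.

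**Figure D3:**
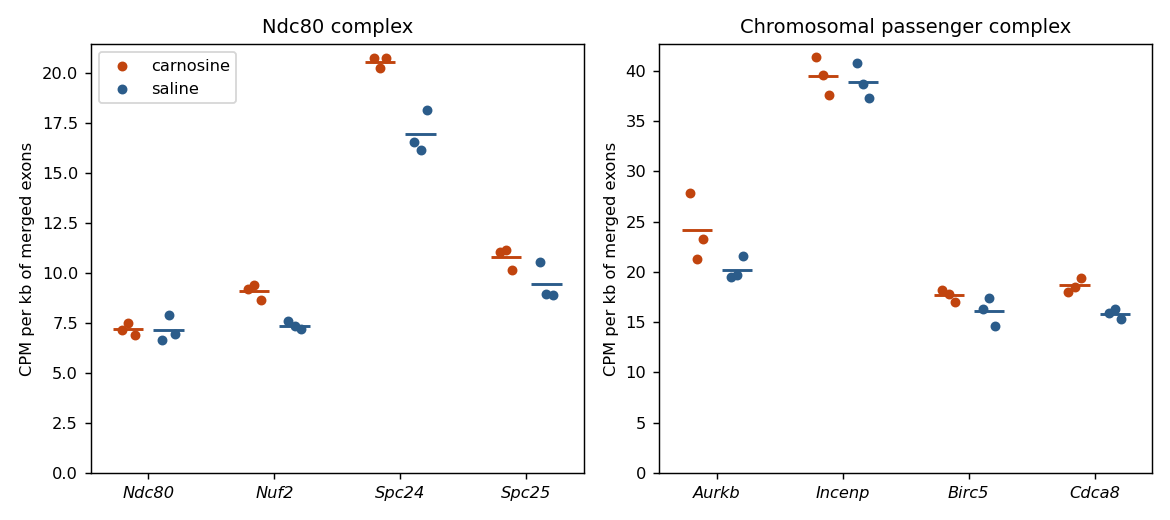
Level of each subunit of the Ndc80 complex and of the chromosomal passenger complex as CPM per kb of merged exons, vertical axes from 0, with 1 point per library, carnosine left of saline, and the group mean as a bar. Nuf2, Spc24 and Cdca8 have all 3 carnosine libraries above all saline libraries, while the other 5 subunits overlap.

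Other genes of the same machinery, 107 in all, were taken from lists by role that were chosen with earlier results of these data known. Of these, 24 were called higher (22.4%) and 2 lower, with a median log2 fold change of 0.094. The shares over all genes tested were 9.51% higher and 8.39% lower. Among 29 further centromere and kinetochore genes 4 rose (13.8%, not far from the share over all genes tested) and 0 fell. They were Cenph, a subunit of the constitutive centromere network (log2 fold change 0.44, edgeR adjusted p = 0.00391), Oip5, which helps to recruit Hjurp (log2 fold change 0.47, edgeR adjusted p = 0.0103), Pmf1 of the MIS12 complex (log2 fold change 0.22, edgeR adjusted p = 0.0135) and Ska1, which tracks microtubule ends (log2 fold change 0.35, edgeR adjusted p = 0.0274). Among 26 genes of the checkpoint, the APC/C and separase 5 rose (19.2%) and 0 fell. Fbxo5 encodes the APC/C inhibitor EMI1 (log2 fold change 0.26, edgeR adjusted p = 0.0152), Anapc15 an APC/C subunit (log2 fold change 0.36, edgeR adjusted p = 0.0161), Mad1l1 the anchor of MAD2 (log2 fold change 0.26, edgeR adjusted p = 0.0187), Kntc1 a part of the complex that brings MAD1 and MAD2 to kinetochores (log2 fold change 0.23, edgeR adjusted p = 0.0196) and Trip13 the ATPase that takes MAD2 out of the inhibitor (log2 fold change 0.69, edgeR adjusted p = 0.0446).

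Among 36 further genes of spindle, centrosome and cytokinesis 9 rose (25%) and 1 fell. Racgap1, which with a kinesin brings Ect2 to the midzone, had 129.6, 129.8 and 130.1 CPM in the carnosine libraries, against 105, 111 and 105 CPM in the saline libraries (log2 fold change 0.28, edgeR adjusted p = 0.00273). The groups do not overlap. Kntc1 is listed here too. Haus2, a subunit of the augmin complex that branches microtubules (log2 fold change 0.49, edgeR adjusted p = 0.00321), and Gpsm2, which orients the spindle (log2 fold change 0.48, edgeR adjusted p = 0.00966), also rose, and Cep152, a scaffold of centriole duplication, fell (log2 fold change -0.27, edgeR adjusted p = 0.0136). Among 17 genes of the entry switch and of the B-MYB, MuvB and FOXM1 regulators 7 rose (41.2%) and 1 fell. Their median was 0.28, the largest of the 4 lists. Cyclin A2, encoded by Ccna2, had 166, 166 and 152 CPM in the carnosine libraries, against 117, 117 and 113 CPM in the saline libraries (log2 fold change 0.48, edgeR adjusted p = 0.000546). This change is larger than that of any of the 36 genes. The cyclins Ccnb1 (log2 fold change 0.45, edgeR adjusted p = 0.0054) and Ccnb2 (log2 fold change 0.34, edgeR adjusted p = 0.00612) and the B-MYB gene Mybl2 (log2 fold change 0.33, edgeR adjusted p = 0.00503) rose, and the kinase Wee1, which inhibits CDK1, fell (log2 fold change -0.17, edgeR adjusted p = 0.0242). Foxm1 had 101, 73.3 and 68.5 CPM in the carnosine libraries, against 53.3, 81.2 and 85.2 CPM in the saline libraries, with wide overlap, and did not pass (log2 fold change 0.14, edgeR adjusted p = 0.673). Cdk1, the kinase of these cyclins, did not pass either (log2 fold change 0.29, edgeR adjusted p = 0.0638).

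Levels can be compared between genes only per length, and here the length used matters. The gene lengths that the deposited FPKM values imply equal the sum of all distinct annotated exons, with overlapping exons counted more than once, for 36 of 36 genes (GENCODE M21, within 1 base). They were so for 97.5% of 15279 tested genes. Against the merged exons, the lengths used are 1.97 times as long for Aurkb and equal for Cks2 only, with a median ratio of 1.25. Levels per length are therefore given as CPM per kilobase of merged exons, a scale on which genes with many overlapping exons stand higher than by FPKM.

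Top2a stood highest on that scale, at 91.9 ± 0.867 CPM per kb in carnosine and 74.5 ± 0.346 CPM per kb in saline (SD, n = 3 each). Mki67 came next in saline, at 71.2 ± 0.691 CPM per kb in carnosine and 67.6 ± 0.592 CPM per kb in saline. In saline these neighbours differ by more than the spread of either. By deposited FPKM, Mki67 stands above Top2a in saline, so that their order depends on the length. Cks1b was at 74.1 ± 3.35 CPM per kb in carnosine and 64.1 ± 0.854 CPM per kb in saline, and Cks2 was at 49.3 ± 3.38 CPM per kb in carnosine and 50.7 ± 2.50 CPM per kb in saline. Cks1b stands above Cks2 on this scale and below it by FPKM, but the values of Cks2 are uncertain because of processed pseudogenes, as given below. Cdc20 was at 59.2 ± 2.004 CPM per kb in carnosine and 52.6 ± 1.32 CPM per kb in saline. Of the Ndc80 complex, Spc24 was at 20.6 ± 0.294 CPM per kb in carnosine and 17.0 ± 1.06 CPM per kb in saline and Spc25 at 10.8 ± 0.544 CPM per kb in carnosine and 9.47 ± 0.921 CPM per kb in saline. The head proteins were lower, with Nuf2 at 9.09 ± 0.393 CPM per kb in carnosine and 7.37 ± 0.198 CPM per kb in saline and Ndc80 at 7.18 ± 0.304 CPM per kb in carnosine and 7.16 ± 0.654 CPM per kb in saline. Nuf2 and Ndc80 overlap in saline, and lie apart in carnosine. Cdc25c stood lowest, at 3.99 ± 0.205 CPM per kb in carnosine and 3.19 ± 0.225 CPM per kb in saline, with G2e3 just above it at 4.04 ± 0.514 CPM per kb in carnosine and 3.90 ± 0.323 CPM per kb in saline.

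**Figure D4:**
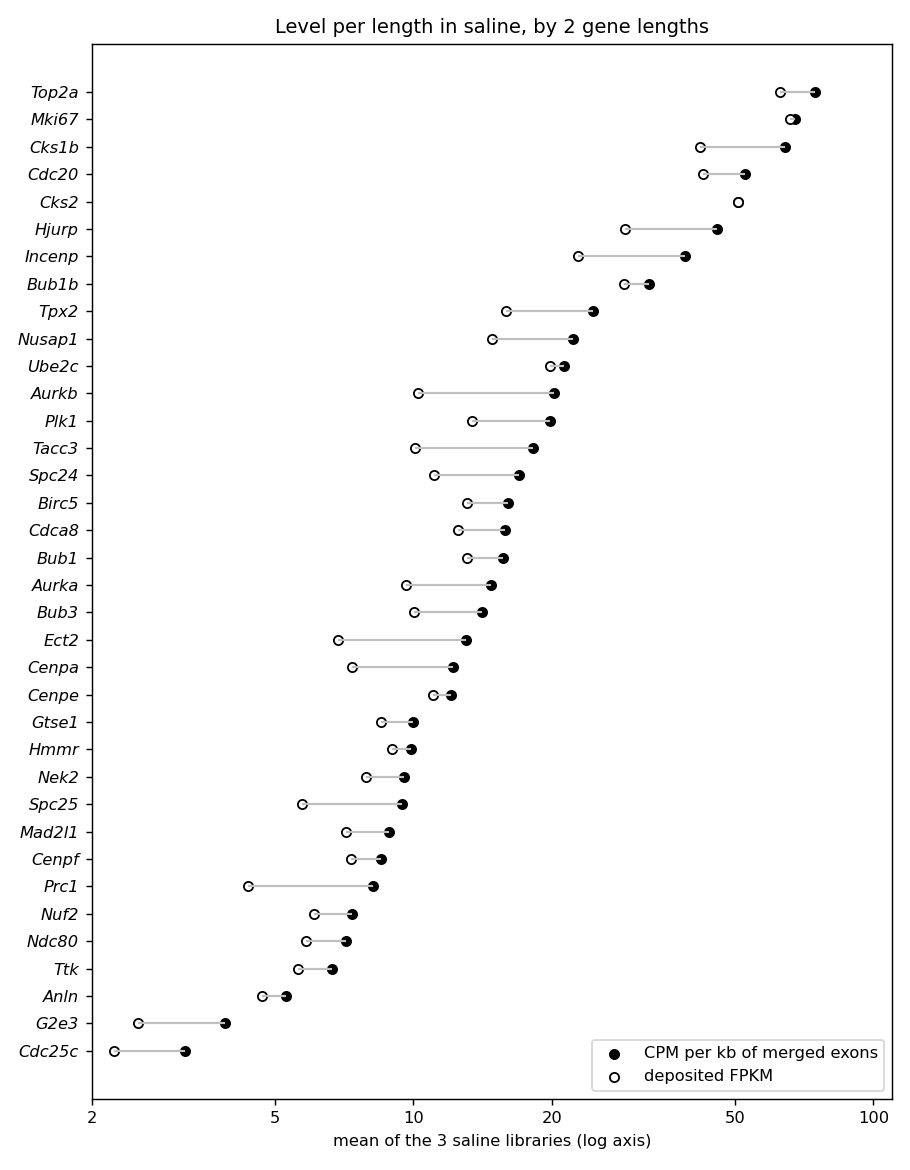
Mean level of each of the 36 genes in the 3 saline libraries per length of gene, log axis, as CPM per kb of merged exons (filled) and as deposited FPKM (open). Top2a leads by merged exons with 74.5 and Mki67 by FPKM with 65.7, and the 2 values coincide for Cks2.

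The library kit marks strand, but no source used here says whether strand was used in counting, or how reads with several matches were treated. Exons of 9 of the 36 genes overlap an exon of a gene on the other strand. The share of merged exon bases is highest for Ube2c, at 22.8% with Tnnc2, which had 0 counts in all libraries. It is 12.7% for Cdc25c with Gm3550, 11.1% for Prc1 with Rccd1, 8.14% for Tacc3 with Tmem129, 7.09% for Plk1 with Gm44985 and 6.6% for Nek2 with Gm38037. Nusap1 shares 4.24% with Oip5, Cdca8 4.48% with 9930104L06Rik and Cdc20 2.84% with Elovl1. Elovl1 had the most counts of these partners relative to its gene, 29.2% of those of Cdc20, with 31.5 ± 8.06 CPM in carnosine, against 29.4 ± 2.09 CPM in saline (SD, n = 3 each), and did not pass (edgeR adjusted p = 0.745). Rccd1 had 16.1 ± 1.0003 CPM in carnosine and 17.5 ± 2.83 CPM in saline (edgeR adjusted p = 0.575). Tmem129 had 14.0 ± 0.0766 CPM in carnosine and 17.6 ± 4.78 CPM in saline (edgeR adjusted p = 0.245). Neither passed, whereas Oip5, at 12.5 ± 0.137 CPM in carnosine and 8.99 ± 0.209 CPM in saline, rose (edgeR adjusted p = 0.0103). The partner of Cdca8, 9930104L06Rik, fell, with 12.1 ± 1.16 CPM in carnosine and 16.4 ± 1.45 CPM in saline (edgeR adjusted p = 0.0293). The part of shared reads in the results was not tested. Of the 36 genes, 9 share 5% or more of their 50-base words with transcripts of other genes. Cks2 shares the most, at 29.7%, with the processed pseudogenes Gm15452, Gm19945 and Gm12891. Gm15452 had 23.5 ± 1.11 CPM in carnosine and 23.5 ± 2.72 CPM in saline. Gm19945 had 10.5 ± 0.762 CPM in carnosine and 10.6 ± 0.913 CPM in saline. Over all libraries, Gm15452 had 68.1% of the counts of Cks2 and Gm19945 had 30.6%, and the values of Cks2 are uncertain.

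Other markers moved with the groups, and their part in the results above was not tested. Of 25 S phase genes 16 rose and 0 fell, with summed levels of 4829 to 4906 CPM in carnosine, against 4125 to 4203 CPM in saline. Of 15 quiescence and CDK inhibitor genes 2 rose and 2 fell, with log2 fold changes from -0.58 for Btg2 to 0.52 for Cdkn1a. Their summed levels were 1671 to 1796 CPM in carnosine, against 1804 to 1899 CPM in saline. Of 14 genes of the sorting gate and of LT-HSCs 1 rose (Mecom, log2 fold change 0.19, edgeR adjusted p = 0.0241) and 0 fell, with 1418 to 1559 CPM in carnosine, against 1463 to 1488 CPM in saline. Kit, the gate's c-Kit, had 529.8 ± 9.97 CPM in carnosine, against 546 ± 8.53 CPM in saline (SD, n = 3 each). Flt3, which encodes Flk2, and Cd34 were read at 775 and 861 CPM in carnosine, against 818 and 857 CPM in saline, although the gate takes cells without either protein on the surface. Of 10 multipotent progenitor genes 0 rose and 5 fell, with 2564 to 2613 CPM in carnosine, against 2968 to 2997 CPM in saline. The most abundant in saline were Cd34, Flt3, the granule peroxidase Mpo (log2 fold change -0.75, edgeR adjusted p = 2.96e-06), the lymphoid polymerase Dntt (log2 fold change -0.27, edgeR adjusted p = 0.00118) and Prtn3 (log2 fold change -0.36, edgeR adjusted p = 0.0565). Of 15 erythroid genes 7 rose and 1 fell, with 742 to 787 CPM in carnosine, against 612 to 636 CPM in saline. The most abundant in saline were Car2 (log2 fold change 0.15, edgeR adjusted p = 0.0261), Tfrc (log2 fold change 0.12, edgeR adjusted p = 0.137), Tfr2 (log2 fold change -0.18, edgeR adjusted p = 0.0184), Car1 (log2 fold change 0.42, edgeR adjusted p = 0.0156) and the globin Hbb-bt (log2 fold change 1.63, edgeR adjusted p = 6.5e-05), whose reads can be split with its near-identical neighbour. Of 7 plasma cell genes tested 4 rose and 1 fell, with 409.8 to 667 CPM in carnosine, against 194 to 279.6 CPM in saline. The most abundant in saline were Jchain (log2 fold change 1.74, edgeR adjusted p = 0.00649), Xbp1 (log2 fold change 0.094, edgeR adjusted p = 0.692), Sdc1 (log2 fold change -0.44, edgeR adjusted p = 0.0115), Irf4 (log2 fold change 0.65, edgeR adjusted p = 0.00464) and Mzb1 (log2 fold change 0.75, edgeR adjusted p = 0.0136). In these lists the ranges do not overlap, except that of the gate.

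Markers of 5 other cell types summed to lower levels than those of plasma cells. The 9 neutrophil genes summed to 4.78 to 16.2 CPM in carnosine, against 3.50 to 10.4 CPM in saline, and 0 of 3 tested passed. B cell genes summed to 44.3 to 48.9 CPM in carnosine, against 46.8 to 53.9 CPM in saline (0 of 8 higher, 2 lower), T and NK cell genes to 82.5 to 86.4 CPM in carnosine, against 90.7 to 94.7 CPM in saline (0 of 5 higher, 1 lower), monocyte and macrophage genes to 48.8 to 53.7 CPM in carnosine, against 66.8 to 74.4 CPM in saline (0 of 8 higher, 1 lower) and megakaryocyte genes to 72.5 to 78.4 CPM in carnosine, against 77.0 to 80.6 CPM in saline (0 of 5 higher, 1 lower). Of the listed markers of these cell types, none was at 0 in all 6 libraries. Of 18 tested immediate early and Hsp70 genes, which also respond to tissue handling, 1 rose and 16 fell, with 21670.0 to 22067 CPM in carnosine, against 32955 to 33614 CPM in saline.

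How many of the 36 genes were called depended on the tool and on single libraries. DESeq2 called 10 higher and limma-voom 19, and 0 were called lower by either. Called by edgeR and not by DESeq2 were Spc24, Cenpf, Bub1, Cdc20, Tpx2, Hmmr, Cdc25c, Cks1b and Mki67. With 1 library left out, edgeR called 12 without carnosine replicate 1, 14 without carnosine replicate 2, 11 without carnosine replicate 3, 13 without saline replicate 1, and 12 without saline replicate 2 or 3. Called in each of these 6 fits, by both other tools and under each other scaling, filter, fit and correction tried were 9 genes. These were Nuf2, Cenpe, Bub1b, Mad2l1, Ube2c, Cdca8, Tacc3, Nek2 and Top2a, from every subgroup but mitotic entry and cytokinesis. The median log2 fold change of the 36 genes lay between 0.16 and 0.21 in each.

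**Figure D5:**
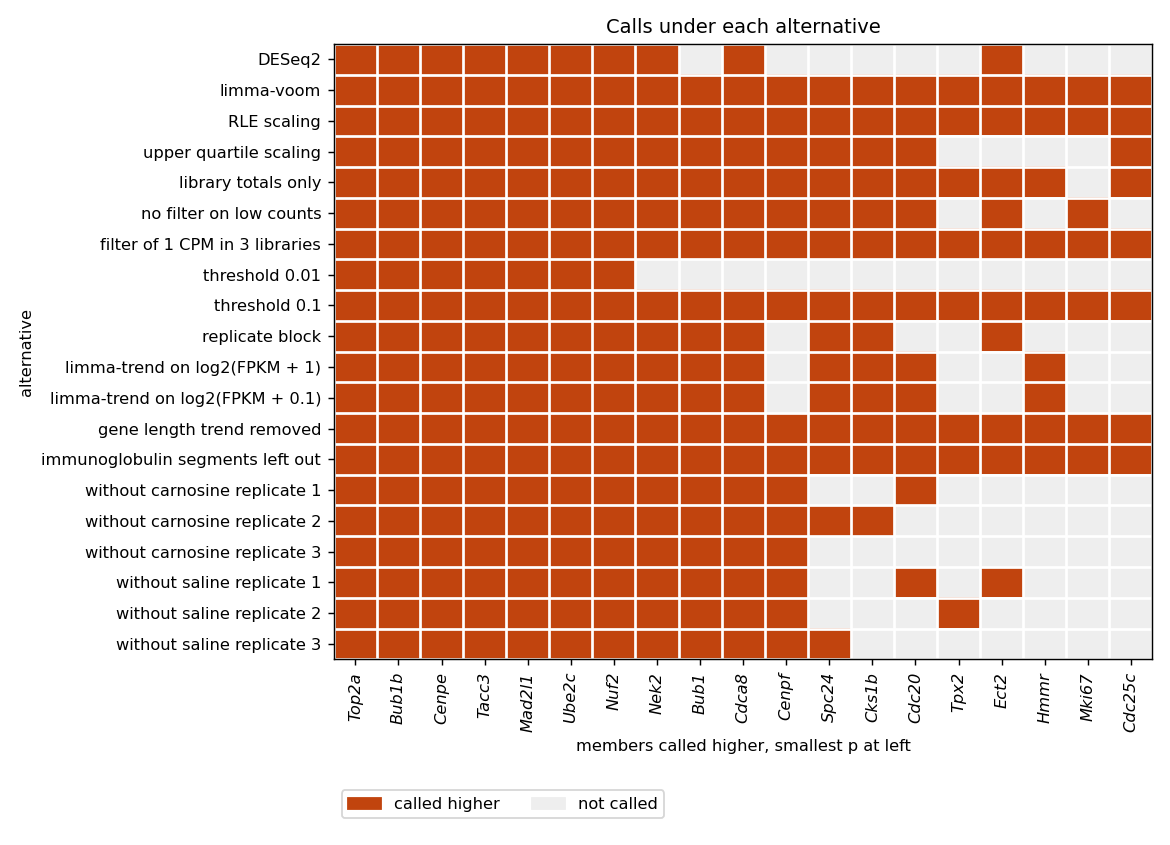
The 19 genes called higher in carnosine, across, under each other way of processing, down, with filled squares where the gene was called at an adjusted p under 0.05 or at the threshold named. Bub1b, Top2a and the other 7 genes called in each analysis at 0.05 have filled squares in every row but that of the threshold of 0.01, where Nek2 and Cdca8 do not, and 10 squares are filled with DESeq2.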

How the data were processed

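Poly-A RNA of 6 libraries of sorted mouse LT-HSCs, 3 carnosine and 3 saline, was sequenced as stranded paired-end libraries on an Illumina NovaSeq from samples with an RNA integrity number above 7.0, per the labels' protocols. GRCm38, CASAVA 1.8, edgeR, HISAT2 and StringTie are named in the submitters' processing notes. No source used here states the strand setting, annotation release or treatment of multiply mapped reads. The deposited table holds a raw count and an FPKM for each gene in each library, per the file headers. The deposited FPKM values equal CPM on the library total per kilobase of a whole-number gene length, within 0.05 bases, for 95.4% to 96.4% of values over 20 counts.

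Counts were scaled by TMM (factors 0.998 to 1.003), filtered with filterByExpr and tested two-sided in edgeR 4.0.16 (R 4.3.3) by quasi-likelihood. P-values were adjusted by Benjamini-Hochberg over 15298 genes, with a threshold of 0.05. A floor of 3 counts is 0.227 to 0.291 CPM, for counting error only. No library repeats another. Same-numbered libraries did not deviate together (correlations -0.050, -0.069 and 0.019), and no block was used. Alternatives were DESeq2 1.42.0, limma 3.58.1 on counts and on log2(FPKM + 1) or log2(FPKM + 0.1), other scalings, filters and thresholds, a block, a gene length correction and leaving out each library. Leaving out immunoglobulin segments was added after seeing the data. The 36 genes, the gene lists and the subgroups were chosen with earlier results of these data known. All 36 genes are named, and of each other pathway list up to 4 genes past the threshold with the smallest p, and of marker lists that moved the 5 most abundant. Other genes named were chosen after their values were seen.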

Additional observations from a re-analysis of the deposited data

How the results depend on the processing

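Of the 36 genes 19 were called higher, against 10 with DESeq2, 7 at a threshold of 0.01 and 11 to 14 with 1 library left out, and 0 were called lower in any of these. By subgroup, DESeq2 called 2 kinetochore, 3 checkpoint, 2 spindle and 0 mitotic entry genes. At 0.01 edgeR called 2 kinetochore, 3 checkpoint, 0 passenger complex, 1 spindle and 0 entry genes. Spindle genes called were 2 with upper quartile scaling or no filter, and 2 to 3 with 1 library left out. Entry genes called were 1 with no filter or with either FPKM fit, and 0 to 1 with 1 library left out. With the replicate number as a block, in spite of the lack of pairing, 13 of the 36 genes were called, among them 2 spindle genes and 1 entry gene, and Cenpf, Cdc20, Tpx2, Hmmr, Cdc25c and Mki67 lost the call. The count of all genes called higher was 772 with DESeq2, 946 with the block and 1289 with upper quartile scaling, against 1455, and that of all genes called lower was 764, 810 and 1402, against 1283. The cause was not tested. Genes near 0 changed sign. Bub3 was at 0.0040 with limma-voom, 0.012 without a filter, 0.023 with the length correction and 0.00030 without immunoglobulin segments. Ndc80 was at -0.011 with upper quartile scaling and -0.0021 with library totals only, and Hjurp at 0.0087 with the length correction. With 1 library left out, log2 fold changes ranged from -0.152 to 0.114 for Hjurp, -0.0434 to 0.0805 for Ndc80, -0.102 to 0.0767 for Bub3, -0.0141 to 0.0580 for Incenp, -0.0760 to 0.0135 for Cks2, -0.0250 to 0.1497 for G2e3 and -0.0021 to 0.0726 for Gtse1. The 3 libraries a group and counts of 150 to 11003 limit what can be seen.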
